A study of Mus musculus with 6 samples.

Results

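The genes described here carry out meiotic recombination or answer DNA damage, and they were taken from a list of 39 named genes. Each was matched by its symbol or an older synonym to probe sets with 1 gene symbol, and the probe set with the highest mean signal over all 6 arrays stood for the gene. The rule found a probe set for 37 of the 39, out of 18193 genes with a probe set, and all 37 were bright enough to be tested, among 12971 tested genes. The expression of Hfm1 and Rnf212 was not analysed here. The study compared testes of Nxf2 knockout (KO) mice with those of wild-type (WT) mice at postnatal day 21, with 3 samples per genotype and 1 Affymetrix array per sample. The samples differ, per their titles, in genotype alone. The submitters describe the samples as pairs of KO and WT testes and testis weight as similar at this age, without saying which samples pair. The strain, the allele and the number of animals per sample are not stated in the labels or design text, and p-values measure only the spread between these samples. The Nxf2 probe set, on the X chromosome, read 116, 106 and 131 in KO and 374, 340.4 and 386 in WT, a log2 difference of -1.59 by limma with an adjusted p of 0.000488.

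In meiotic prophase, SPO11 cuts both DNA strands at many sites, and the ends are resected to single strands. The meiotic recombinase DMC1 carries these strands into the homologous chromosome. A minority of the joint molecules, bound by MSH4 and MSH5, become crossovers. Most of the machinery that resects, exchanges and signals breaks is shared with dividing somatic cells, where ATM, ATR and their kinases CHK1 and CHK2 hold the cell cycle while damage is repaired. In the testis these genes act mainly in spermatocytes, and many are also active in dividing spermatogonia.

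The members were read in 2 classes. The meiosis-specific class had 13 listed and 11 measured genes (Spo11, Dmc1, Hormad1, Hormad2, Mei1, Mei4, Msh4, Msh5, Mnd1, Psmc3ip and Ccnb1ip1). The general repair class had 26 genes, all measured, and includes Mlh3 and Trip13, which also act in somatic cells.

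The RefSeq promoter table (GRCm38.p6) held 33 of the 39 genes, in 38 windows. Exo1, Fancd2, H2afx, Nbn, Rad50 and Spo11 had no window there and were not searched. In the 250 bases upstream of the annotated start, the letters TTCCCGC, the core that E2F cell cycle factors recognise, were searched on both strands. They stood in 8 of the 38 windows (21.1%), against 3.82% of all 32851 windows of the same length, and the windows of the members were also richer in G and C (median 58.8% against 52.4%). The 4 windows below show this motif in front of 2 genes of each class, chosen after their values were seen, with the match in capitals (GCGGGAA is its other strand). They are Msh5 at chr17:35046623-35046872 on the minus strand, Hormad1 at chr3:95559427-95559676 on the plus strand, Chek2 at chr5:110839733-110839982 on the plus strand and Mdc1 at chr17:35841248-35841497 on the plus strand.
Msh5: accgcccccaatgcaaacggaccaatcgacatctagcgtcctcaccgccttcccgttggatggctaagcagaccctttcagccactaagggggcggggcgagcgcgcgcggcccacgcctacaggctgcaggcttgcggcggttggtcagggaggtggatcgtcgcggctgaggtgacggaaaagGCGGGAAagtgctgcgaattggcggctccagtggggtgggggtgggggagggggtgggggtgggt
Hormad1: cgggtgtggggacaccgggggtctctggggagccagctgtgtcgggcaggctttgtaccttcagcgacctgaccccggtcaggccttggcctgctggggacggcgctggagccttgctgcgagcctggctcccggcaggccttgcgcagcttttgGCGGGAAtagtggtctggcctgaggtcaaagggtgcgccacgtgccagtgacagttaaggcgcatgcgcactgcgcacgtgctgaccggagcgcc
Chek2: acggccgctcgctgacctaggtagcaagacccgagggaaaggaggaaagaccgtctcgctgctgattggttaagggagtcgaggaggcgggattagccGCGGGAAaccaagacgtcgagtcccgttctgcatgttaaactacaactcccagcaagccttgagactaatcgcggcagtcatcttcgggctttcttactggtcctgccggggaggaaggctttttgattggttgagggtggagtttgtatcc
Mdc1: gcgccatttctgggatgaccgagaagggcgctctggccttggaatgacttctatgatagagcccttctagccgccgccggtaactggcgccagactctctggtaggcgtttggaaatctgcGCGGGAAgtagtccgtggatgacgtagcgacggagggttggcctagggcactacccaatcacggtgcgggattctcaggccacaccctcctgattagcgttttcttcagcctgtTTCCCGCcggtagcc
The genes behind these windows had unlike log2 fold changes, at -0.31 for Msh5, -0.02 for Hormad1, 0.37 for Chek2 and -0.03 for Mdc1. The other motif carriers were Brca2 (log2 fold change -0.04), Rnf8 (0.08) and the unmeasured Rnf212. Of the 6 measured carriers 4 had a lower mean in KO, as had 16 of the 25 measured genes whose windows lacked the letters. CCAAT stood in 44.7% of the member windows and 33.8% of all windows, and AACNGNC, a MYB-type sequence, in 42.1% and 27.7%, both strands searched and none of the 3 motifs containing another. Hormad1 had 2 overlapping windows, both with TTCCCGC, so the 8 windows belong to 7 genes. Such matches describe the letters only.

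Among the 37 measured genes 1 passed the test: Exo1 rose in KO and no member fell. This is 2.70% of the members, against 7.49% of all tested probe sets (2.26% rose, 5.23% fell) and 10.3% of tested genes (2.98% rose, 7.37% fell), by limma with a Benjamini-Hochberg adjusted p under 0.05. At an unadjusted p under 0.05 the count was 5 of 37, with 3 lower and 2 higher, against 34.9% of tested genes. The 3 KO values lay all on one side of the 3 WT values in 11 members (29.7%, 7 below and 4 above), a separation found in 39.8% of tested genes (18.3% below, 21.5% above) and 33.9% of tested probe sets (14.8% below, 19.1% above). The changes were small. The log2 fold changes ran from -0.31 for Msh5 to 0.37 for Chek2. The 95% interval of every member lay within 1 on the log2 scale, a 2-fold change, in both directions, as in 96.3% of tested genes. For 32 of the 37 it lay within 0.5 (86.5%, against 66.3% of tested genes). Signals ran from 27.2 for Mei4 to 1337 for Atr, and they are not compared between genes because probe sets differ in brightness.

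**Figure D1:**
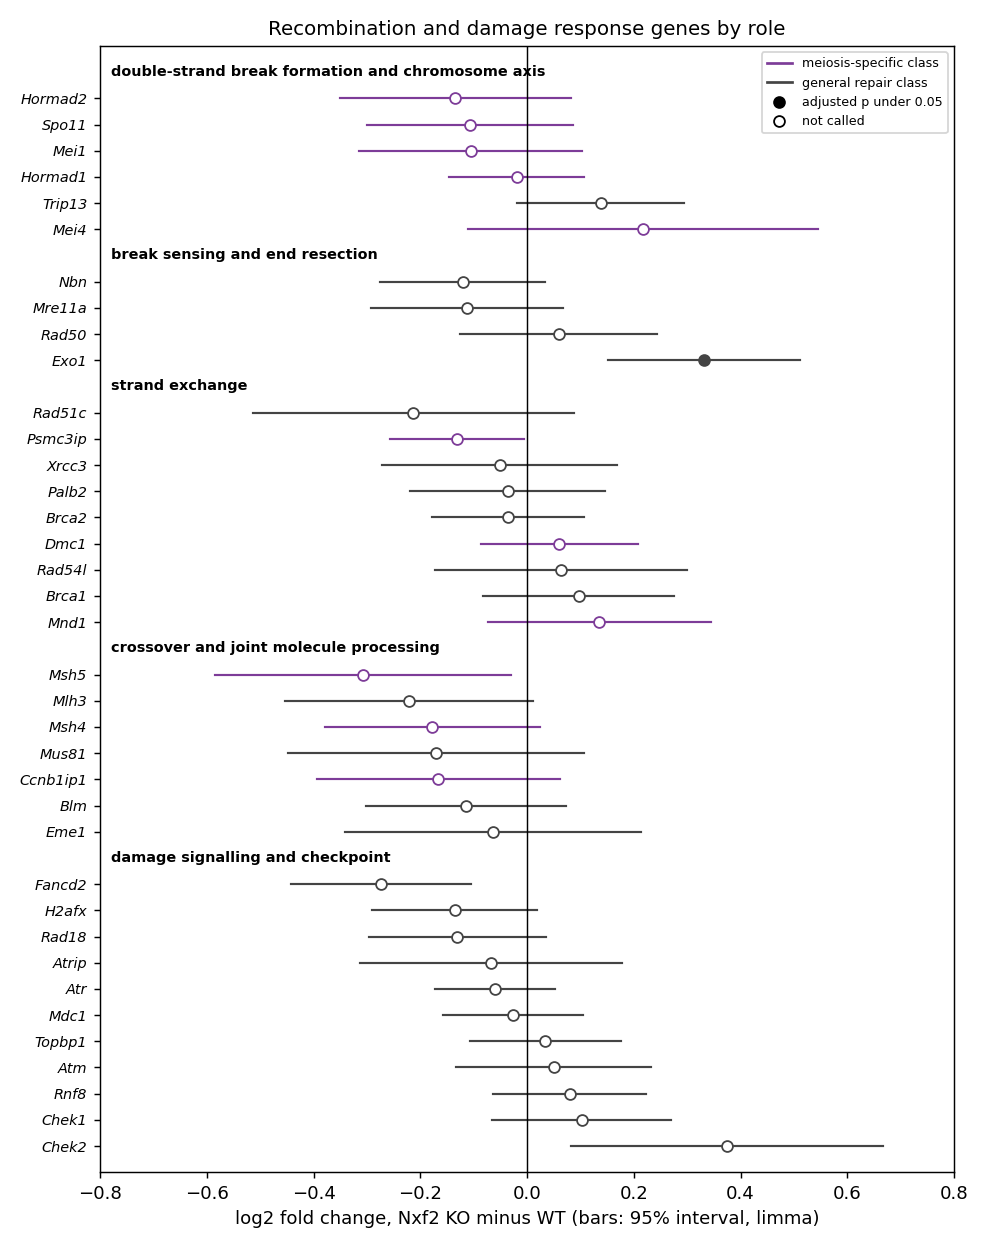
Log2 fold change of the 37 measured genes (KO minus WT, horizontal axis) with the 95% interval from limma, grouped by role; purple marks the meiosis-specific class, and a filled point an adjusted p under 0.05. Exo1, at 0.33, is the filled point, and all 7 genes of crossover and joint molecule processing lie left of 0.

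Genes of break formation and the chromosome axis did not pass the test in KO (0 of 6 called by limma, and 0 at an unadjusted p under 0.05). Spo11, whose product makes the meiotic breaks, had signals of 729, 755 and 591 in KO and of 708, 742 and 774 in WT. KO replicate 3 was the lowest of the 6 and the other 2 KO arrays lay within the WT range, for a log2 fold change of -0.11 (95% interval -0.30 to 0.087, adjusted p = 0.443). Mei1 and Mei4, both needed for break formation, had log2 fold changes of -0.11 and 0.22, and Mei4 was the dimmest member. Hormad1 and Hormad2, which mark unsynapsed chromosome axes, had log2 fold changes of -0.02 and -0.13. Trip13, the ATPase that strips HORMAD proteins from synapsed axes, read 408, 379 and 379 in KO and 363, 335 and 361 in WT. All its KO values lay above the WT values, and its dimmer tested probe set had the same sign (log2 fold changes 0.14 and 0.15). Neither passed, with adjusted p = 0.227 and 0.279 by limma.

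In break sensing and end resection, the exonuclease gene Exo1 was the called member. Its signals were 284, 311 and 329 in KO and 239, 246 and 244 in WT. Every KO array lay above every WT array, and the means were 308 ± 22.4 and 243 ± 3.94 (SD, n = 3 each). The rise was 1.26-fold, a log2 fold change of 0.33 ± 0.0807 (SE, 95% interval 0.15 to 0.51) with an adjusted p of 0.0371 by limma. The call was near the threshold. Under 16 alternatives the log2 fold change stayed between 0.25 and 0.39, but the adjusted p ranged from 0.00231 to 0.147 and the call was lost in 9. It was lost on leaving out KO replicate 2 (adjusted p = 0.0852), KO replicate 3 (0.0901), WT replicate 1 (0.147), WT replicate 2 (0.0765) or WT replicate 3 (0.0704), after median centring of the arrays (0.0653), without the dim filter (0.0604), without the intensity trend (0.0687) and on the mean of the gene's probe sets (0.126). A dimmer Exo1 probe set had overlapping groups, at 0.16 ± 0.152 (log2 fold change ± SE) and an adjusted p of 0.503. The third was below the dim limit. The MRN complex, which binds and tethers broken ends, had no called gene. The nuclease gene Mre11a and Nbn had log2 fold changes of -0.11 and -0.12, and Rad50 one of 0.06 (adjusted p 0.279 to 0.668 by limma).

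In strand exchange 0 of 9 genes passed by limma, and 1, Psmc3ip, had an unadjusted p under 0.05. Dmc1, the meiotic recombinase, read 597, 649 and 592 in KO and 586, 625 and 552 in WT. The groups overlapped, and the log2 fold change of 0.06 had a 95% interval of -0.087 to 0.21. The dimmer Dmc1 probe set gave the same value, 0.06. Psmc3ip, which encodes the HOP2 partner of MND1 in strand invasion, read 1135, 1114 and 1012 in KO and 1178, 1254 and 1142 in WT. All its KO values were below the WT values, with log2 fold changes of -0.13 (adjusted p = 0.159) and -0.16 (adjusted p = 0.155) on its brighter and dimmer probe sets. Its partner gene Mnd1 stood at 0.13 (adjusted p = 0.368). The ratio of Mnd1 to Psmc3ip within an array, a comparison chosen after the values were seen, differed by 0.27 on the log2 scale (exact two-sided permutation test, p = 0.2, where 0.1 is the smallest p that 3 against 3 allows). The groups overlapped in it. The p was also 0.2 after Benjamini-Hochberg adjustment over the 2 such ratios.

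None of the other genes of strand exchange was called. Brca1 read 335, 321 and 345 in KO and 310.5, 288 and 337 in WT, with overlapping groups and a log2 fold change of 0.10 (95% interval -0.082 to 0.28). Brca2 and Palb2, whose proteins work with BRCA1 in homologous recombination, had log2 fold changes of -0.04 each. Rad51c, a gene of homologous recombination, gave 268, 302 and 253 in KO and 324, 389 and 257 in WT on its brighter probe set, which overlap. Its dimmer probe set read 207, 249.9 and 220.1 in KO and 290.2, 293 and 273 in WT, which do not overlap. The respective log2 fold changes were -0.21 (adjusted p = 0.322) and -0.33 (adjusted p = 0.0517, limma), so neither passed. The dimmer one did pass after median centring (adjusted p = 0.0348), after quantile normalization (0.0462), with the stricter dim filter (0.044), with array weights (0.00728), with the replicate number as a block (0.0211) and without KO replicate 2 (0.0469). Xrcc3, whose product forms a complex with that of Rad51c, had a log2 fold change of -0.05. Rad54l, a DNA translocase gene of strand exchange, read 105, 105 and 120.2 in KO and 107, 104 and 103 in WT on its brightest probe set. Its 3 tested probe sets disagreed in sign, at 0.06, -0.06 and -0.12, with adjusted p values of 0.508 to 0.782 by limma.

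All 7 measured genes of crossover and joint molecule processing had a lower mean in KO, and none passed the test by limma (1 at an unadjusted p under 0.05). Their median log2 fold change was -0.17. Over all tested genes the median was 0.04, and 43.1% had a lower mean. Msh5 read 63.9, 70.0 and 55.6 in KO and 76.4, 78.2 and 84.3 in WT. The groups did not overlap, and the log2 fold change was -0.31 (95% interval -0.59 to -0.031, adjusted p = 0.142). A dimmer Msh5 probe set had overlapping groups and a log2 fold change of -0.08 (adjusted p = 0.744 by limma). Msh4, which encodes the other subunit of the same clamp, read 226, 239 and 198 in KO and 253, 244 and 252 in WT. The Msh4 groups did not overlap, with a log2 fold change of -0.18 (95% interval -0.38 to 0.024, adjusted p = 0.225). Mlh3, a subunit of the nuclease that cuts joint molecules into crossovers, gave 364, 369.8 and 278 in KO against 392, 393 and 388 in WT. Its 3 WT values were close together, KO replicate 3 stood below the rest, and its log2 fold change was -0.22 (adjusted p = 0.193). Ccnb1ip1, a ubiquitin ligase gene of crossover designation also called HEI10, had a log2 fold change of -0.17 with overlapping groups. The nuclease pair Mus81 and Eme1 and the helicase gene Blm had log2 fold changes of -0.17, -0.06 and -0.11, also with overlap. On all 3 KO arrays the median of the 7 genes, set against the WT average, was below that of every WT array: it was -0.10, -0.08 and -0.33 in KO and 0.02, -0.02 and 0.05 in WT. The sign of Eme1 turned without WT replicate 1, leaving 6 of 7 lower.

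In damage signalling 0 of 11 genes passed by limma, and 2 had an unadjusted p under 0.05. Fancd2, the Fanconi anaemia protein that is ubiquitinated at damaged forks, came nearest. It read 414, 441 and 367 in KO and 494, 498 and 487 in WT. The groups did not overlap, the means were 408 ± 37.3 and 493 ± 5.72 (SD, n = 3 each), and the log2 difference was -0.27 ± 0.0757 (SE) at an adjusted p of 0.0553. It passed with the stricter dim filter (adjusted p = 0.0457), with array weights (0.01) and with the replicate number as a block (0.0236). Chek2, the CHK2 kinase gene, read 56.6, 61.7 and 73.2 in KO and 46.5, 48.5 and 47.3 in WT. Its KO values were all above the WT values and more spread, and its log2 fold change of 0.37 had an adjusted p of 0.103. Chek1, the related CHK1 kinase gene, had overlapping groups, at 0.10 with an adjusted p of 0.399.

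The histone gene H2afx (now H2ax), whose product is phosphorylated around breaks and over the sex chromosomes of spermatocytes, read 341, 367 and 331 in KO. In WT it read 378, 381 and 384. Every KO array was below every WT array, for a log2 fold change of -0.14 (95% interval -0.29 to 0.018, adjusted p = 0.225). Rad18, a ubiquitin ligase gene of damage tolerance, read 569.9, 585 and 493 in KO and 585, 629 and 588 in WT. KO replicate 2 overlapped WT replicate 1, and all 4 tested Rad18 probe sets had negative log2 fold changes, from -0.25 to -0.03, without a call. Mdc1, Rnf8 and Topbp1, which read or spread the signal from phosphorylated H2AX or activate ATR, had log2 fold changes of -0.03, 0.08 and 0.03.

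Probe sets of the apical kinase genes Atr and Atm gave different values. Atr read 1367, 1325 and 1236 in KO and 1306, 1422 and 1369 in WT on its brightest probe set, which overlap, with a log2 fold change of -0.06 (95% interval -0.17 to 0.052). The dimmer Atr probe sets gave -0.13 and 0.04, and the adjusted p values ran from 0.454 to 0.856 by limma. Atrip, the gene for the partner that brings ATR to single-stranded DNA, had a log2 fold change of -0.07. Atm read 275, 298 and 326 in KO and 283, 289 and 293 in WT on its brightest probe set, for a log2 difference of 0.05 and an adjusted p of 0.72. Its dimmer probe set read 188, 177 and 209 in KO and 138, 135 and 147 in WT. There the groups did not overlap, the log2 fold change was 0.43 ± 0.0975 (SE), and the adjusted p was 0.03 by limma. This probe set was singled out after its value was seen. Its call was lost without KO replicate 1 (adjusted p = 0.0643), KO replicate 3 (0.0779), WT replicate 1 (0.126), WT replicate 2 (0.0743) or WT replicate 3 (0.0509), without the dim filter (0.051) and without the intensity trend (0.0513). The ratio of the dimmer to the brighter Atm probe set within an array was 0.38 higher in KO on the log2 scale. Its groups did not overlap (exact two-sided permutation test, p = 0.1, the smallest possible, and 0.2 adjusted over the 2 ratios). This ratio was also chosen after the values were seen, so its p is not independent support for a difference. Over all members, 16 had more than 1 tested probe set, and in 14 of these all probe sets shared 1 sign. Atr and Rad54l were the exceptions.

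**Figure D2:**
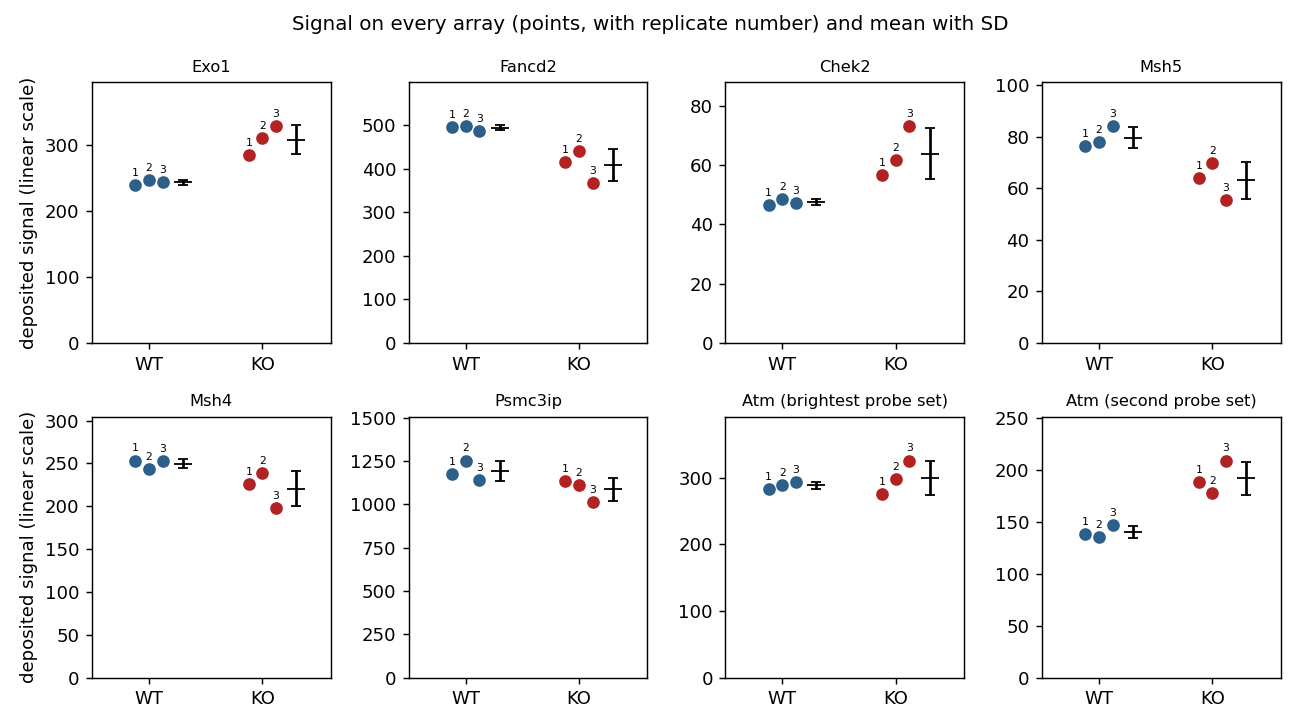
Deposited signal (vertical axis, linear, from 0) of 7 genes on every array, with the replicate number beside each point and the mean ± SD to its right; Atm is shown by both probe sets. The KO points lie wholly above the WT points for Exo1, Chek2 and the dimmer Atm probe set, and wholly below them for Fancd2, Msh5, Msh4 and Psmc3ip.

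Both classes had more lower than higher means in KO, while 43.1% of all tested genes had a lower mean. In the meiosis-specific class 8 of 11 genes had a lower mean in KO (72.7%) and the median log2 fold change was -0.11. In the general repair class 16 of 26 were lower (61.5%) and the median was -0.04. By limma 0 of 11 and 1 of 26 passed, against 10.3% of tested genes. At an unadjusted p under 0.05 the counts were 2 and 3 genes, against 34.9% of tested genes. Set against the WT average, the meiosis-specific median was -0.068, -0.013 and -0.23 in KO replicates 1 to 3 and -0.0019, 0.0081 and -0.043 in WT replicates 1 to 3. KO replicate 2 thus lay within the WT range. The general repair median was 0.00074, -0.014 and -0.098 in KO and -0.012, -0.0089 and 0.032 in WT, where KO replicate 1 lay within the WT range. The difference between both medians was -0.069, 0.00091 and -0.13 in KO and 0.0099, 0.017 and -0.075 in WT, so it overlapped between genotypes. The difference of the class medians of log2 fold changes was -0.06. Moving Mlh3 (-0.22) and Trip13 (0.14) to the meiosis-specific class could not change it, since they lie on opposite sides of both medians.

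KO replicate 3 had the lowest of the 6 values in 19 of the 37 members (51.4%), against 26.8% of tested genes. Without it the meiosis-specific median was -0.046, the general repair median -0.016 and their difference -0.03. The general repair median was also -0.021 without WT replicate 3 and -0.067 without KO replicate 1. The difference was -0.10 without KO replicate 2 and -0.04 without WT replicate 2.

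A further 75 genes of the same pathways were read the same way, and 59 were tested. Of 13 tested genes of meiotic recombination 11 had a lower mean, and their median log2 fold change was -0.14. It was -0.12, -0.07 and -0.22 on the KO arrays and 0.01, -0.01 and -0.01 on the WT arrays. Of 46 tested general repair genes 23 were lower and 23 higher, with a median of 0.00014. With the members added, 19 of 24 meiosis-specific genes (79.2%) and 39 of 72 general repair genes (54.2%) had lower means, with medians of -0.12 and -0.02. Over all tested genes 43.1% had a lower mean, and the median was 0.04. The list was chosen with earlier results of these data known.

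By limma 2 of these 59 genes passed, 1 in each direction. This is 3.39%, against 7.49% of all tested probe sets and 10.3% of tested genes. At an unadjusted p under 0.05 the count was 13 of 59, with 10 lower and 3 higher, against 34.9% of tested genes. Tex11, an X-linked gene needed for crossovers, read 386, 366 and 368 in KO and 303, 303 and 308 in WT, and its log2 signal rose by 0.29 with an adjusted p of 0.0325. Brme1, whose product works with BRCA2 on meiotic breaks, read 147, 166 and 149.7 in KO and 212, 194 and 200.1 in WT. Its log2 signal fell by 0.38, with an adjusted p of 0.0386. Both groups were apart on all arrays, and both calls were lost on leaving out any single array (adjusted p 0.0512 to 0.137 for Tex11 and 0.0554 to 0.164 for Brme1), and without the intensity trend (0.0657 and 0.0588). Tex11 also lost its call after median centring (0.114), and Brme1 without the dim filter (0.0607). Rpa1, the large subunit of the complex that coats single-stranded DNA, was lower on every KO array, at 1200.5, 1181 and 1168 against 1283, 1297 and 1335 in WT (log2 fold change -0.14, adjusted p = 0.0588). Xrcc4, a cofactor of end joining, read 393, 422 and 312 against 454, 532 and 477 (log2 fold change -0.38, adjusted p = 0.0624).

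Markers of testis cell types were read the same way, beside 10.3% of all tested genes called (2.98% rose, 7.37% fell). In bulk tissue, fewer cells of a type and less RNA per cell cannot be told apart. All 10 round spermatid markers fell, with a median log2 fold change of -0.91 and a summed signal of 2307 to 2474 in KO and 3341 to 3908 in WT. Of 10 pachytene spermatocyte markers 5 fell and none rose (median -0.30, sums of 7803 to 9065 and 9585 to 10141). None of 10 early spermatocyte markers passed by limma (3 at an unadjusted p under 0.05), with a median of -0.05 and sums of 9206 to 9742 in KO and 9831 to 10219 in WT. Of 8 markers of undifferentiated spermatogonia 5 rose and none fell, though 2 had a lower mean (median 0.34, sums of 3298 to 3344 and 2726 to 2762). Of 9 tested Sertoli markers 4 rose (median 0.25, sums of 4406 to 4871 and 3711 to 3938). The macrophage list, with 0 of 9 called by limma and 4 at an unadjusted p under 0.05, had sums of 1850 to 2826 in KO and 1171 to 1746 in WT, with KO replicate 3 the highest. KO replicate 3 was also the highest in the summed Leydig markers, of which 2 of 6 rose (sums of 2685 to 3942 in KO and 2224 to 2563 in WT). Of the 6 markers of differentiating spermatogonia 1 rose and 1 fell, and 5 had a higher mean (median 0.22). Of 6 endothelial markers 2 rose, and 5 had a higher mean (median 0.30). Of 6 peritubular myoid markers 0 passed by limma (1 at an unadjusted p under 0.05, median 0.07). No marker gene with a probe set was at 0, and Amh was below the dim limit. The part of these shifts in the members' values was not tested.

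**Figure D3:**
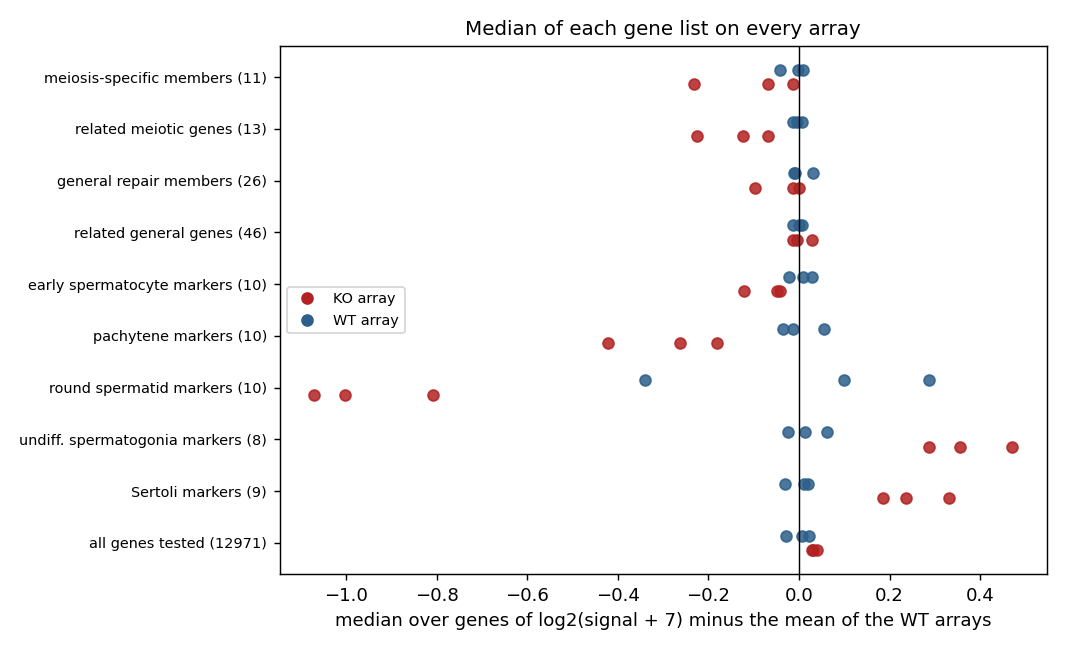
Median over the tested genes of a list of log2(signal + 7) minus the mean of the WT arrays (horizontal axis), 1 point per array, with the number of genes in brackets. The meiosis-specific and general repair medians lie between -0.23 and 0.03 on all arrays, the pachytene medians on KO arrays between -0.42 and -0.18, and the round spermatid medians on KO arrays between -1.07 and -0.81.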

How the data were processed

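Total RNA of 6 mouse testis samples was amplified by in vitro transcription and hybridised to 1-colour Affymetrix arrays, per the labels' protocols. The deposited values are linear signal intensities made with MAS5 (version not stated), per the submitters' processing notes. Each deposited array had been scaled to a mean of 150, computed here after trimming 2% at both ends. Detection calls, scanner files and scan dates were not used here. No source used here names a build for the probe sets.

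The 64 control probe sets of 45101 were left out. Of the others, 34945 had 1 symbol, 932 several and 9160 none here. Symbols were updated by Entrez identifier against RefSeq gene names (GRCm38.p6), where 34741 were found. Signals were transformed to log2(signal + 7), 7 being the 25th percentile of all values, which understates changes of dim probe sets. Probe sets were tested if their mean reached the 40th percentile, a signal of 20.5, leaving 27022. The genotype contrast was fitted in R 4.3.3 using limma 3.58.1 (lmFit, eBayes with trend, two-sided, Benjamini-Hochberg over all tested probe sets, threshold 0.05). Log2 fold changes are KO minus WT. With 3 arrays per group, array number sets the precision. Median signals lay between 37.1 and 40.9, and Spearman correlations were 0.965 to 0.983 between genotypes and 0.98 to 0.992 within them.

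Values on every array are given for called members, the 10 of lowest p, Spo11, Dmc1, Msh4, Msh5, Brca1, Atm, Atr, H2afx, Chek2 and members whose probe sets disagreed in sign. The same was done for related genes that were called or among the 4 of lowest p. Rad51c was added after its values were seen. The members and lists were chosen with earlier results of these data known. Lists are described by counts and medians, without a test. The fit was run on simulated data in which the added changes were larger than those of the members. It was therefore not tested on changes of the members' size. Alternatives were quantile normalization, median centring, pseudocounts of 1 and 39, no dim filter or one at the 60th percentile, no trend, array weights, the replicate block, each array left out, the mean of a gene's probe sets, and another class split.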

Additional observations from a re-analysis of the deposited data

How the results depend on the processing

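Over all probe sets 2024 were called (610 rose, 1414 fell). Median centring turned the split to 247 and 1382. The count was 1005 without the dim filter, 743 without the trend, 7217 with array weights, and 159 (without WT replicate 1) to 1534 (without KO replicate 1) when an array was left out. For the members the count of 1 became 0 after median centring, without the dim filter, without the trend and on the mean of a gene's probe sets (limma, with 4 to 7 members at an unadjusted p under 0.05), 2 with the filter at the 60th percentile (34 members tested), 4 with array weights (Exo1 and Chek2 higher, Fancd2 and Mus81 lower), and 0 to 1 when an array was left out. For the 59 related genes the count of 2 became 1 after median centring and without the dim filter, 0 without the trend (limma, 11 at an unadjusted p under 0.05), 13 with array weights, and 0 to 1 when an array was left out.

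The replicate number was tried as a block. Deviations of same-numbered KO and WT arrays correlated at 0.0793, 0.457 and 0.266. Each KO array correlated best with the WT array of its own number, and WT replicate 1 correlated best with KO replicate 3 (0.112). The submitters speak of pairs without saying which samples pair, so whether the numbers mark them was not settled. With the replicate block 4503 probe sets were called (2173 rose, 2330 fell), 2 members (Exo1 higher, Fancd2 lower at an adjusted p of 0.0236 by limma) and 6 related genes, and the dimmer Rad51c probe set had an adjusted p of 0.0211.

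The medians kept their sign under all 17 alternatives: -0.15 to -0.046 for the meiosis-specific class, -0.088 to -0.0083 for the general repair class and -0.10 to -0.03 for their difference. Among these, the other class split could not move the medians. Of 37 members, 27 kept their sign under all 16 alternatives. The others, with no call, turned to these log2 fold changes. With array weights Hormad1, Spo11, Xrcc3, Atr and Mdc1 stood at 0.040, 0.014, 0.026, 0.012 and 0.055. Hormad1 stood at 0.0058 after quantile normalization, Topbp1 at -0.011 after median centring and Rad54l at -0.037 on the mean of its probe sets. With an array left out, Spo11 ran from -0.17 to 0.0016 and Brca2 from -0.078 to 0.0059 (each positive without KO replicate 3), and Atm from -0.011 (without KO replicate 3) to 0.11. Hormad1 ran from -0.051 to 0.030 and Mdc1 from -0.060 to 0.035, both positive without KO replicate 3 or WT replicate 2 (0.021 and 0.012). Eme1 ran from -0.19 to 0.0052 (without WT replicate 1) and Xrcc3 from -0.10 to 0.017 (without WT replicate 3). The cause of these changes was not tested.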
